A study of Mus musculus with 16 samples.

Results

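Gas5, Snhg1, Snhg3, Snhg5, Snhg6, Snhg8 and Snhg12 are noncoding genes whose introns carry small nucleolar RNAs (snoRNAs). They were taken by gene symbol from the deposited tables, 7 genes of 53379 gene IDs in all, by a rule that uses no measured value, although the 7 genes themselves were chosen with earlier results of these data known. The 16 libraries came from dorsal root ganglia (DRG) of naive mice aged 8 to 12 weeks on a C57BL/6J background. The mice carried Nav1.8Cre, in which Cre is driven from the Scn10a (Nav1.8) promoter, and the Rosa26fstrap allele, so that cells with a history of Cre activity make EGFP-L10a, a ribosomal protein fused to a fluorescent tag. The female and male groups and both kinds of library shared this genotype, and no group used here lacked Cre or the tag. Ganglia of 3 mice of one sex made a pool, with 4 pools per sex. Each pool gave a library of total RNA from whole DRG (IN) and a library of RNA pulled down with the tagged ribosomes (IP).

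A snoRNA host gene is transcribed as a spliced precursor. Its introns release box C/D snoRNAs (Snord), which guide 2'-O-methylation of ribosomal RNA, or box H/ACA snoRNAs (Snora), which guide pseudouridylation. The spliced exons of many such noncoding hosts leave the nucleus and are taken up by ribosomes although they hold only short open reading frames, and nonsense-mediated decay then degrades them. Many hosts begin with a pyrimidine tract like that of ribosomal protein mRNAs, which links their translation to growth signalling. The question for these genes is therefore whether their exonic RNA is found in the ribosome pulldown at a level like that of mRNAs or is left behind like RNAs that stay in the nucleus.

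The deposited unit was taken to be TPM, a share of transcripts that corrects for gene length and library total. Nuclear protein-coding genes held 9.60% to 13.4% of TPM in IN libraries and 45.0% to 79.9% in IP libraries, so deposited TPM of the fractions are not on one scale. Values below are scaled TPM, that is, TPM divided by a median-of-ratios factor per library, and differences are on the log2(scaled TPM + 1) scale, which understates changes of low genes. The sequencing depth of a library cannot be recovered from TPM. Scn10a, the gene whose promoter drives Cre, was at 125 ± 12.4 in IN and 381 ± 46.8 in IP (SD, n = 8 each). All 8 nociceptor markers examined rose in IP. All 5 markers each of satellite glia, Schwann cells, fibroblasts, endothelium and large-diameter neurons and the 4 tested macrophage markers fell. Each marker kept its side of the median gene under the 4 scalings compared below, of which only quantile normalization goes beyond a factor per library. In bulk samples, fewer cells of a type and less RNA per cell cannot be told apart.

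The sequence at the start of each gene is shown because a start within a pyrimidine tract is the feature that noncoding hosts are known to share with ribosomal protein genes. The RefSeq table (GRCm38.p6) held 6 of the 7 genes, and Snhg6 was not among them. Each line gives 20 bases before the annotated start and the first 30 transcribed bases, 5' to 3' on the gene's strand. Capitals mark a C within 5 bases of the start together with the run of at least 4 pyrimidines (C or T) that follows it, and the search was made on the gene's strand only.
Gas5, upstream start, chr1:161034581-161034630, plus strand: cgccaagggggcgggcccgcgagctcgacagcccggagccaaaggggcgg
Gas5, downstream start, chr1:161035146-161035195, plus strand: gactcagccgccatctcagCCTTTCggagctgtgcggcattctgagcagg
Snhg1, chr19:8723467-8723516, plus strand: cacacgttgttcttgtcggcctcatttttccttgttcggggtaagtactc
Snhg3, chr4:132353657-132353706, minus strand: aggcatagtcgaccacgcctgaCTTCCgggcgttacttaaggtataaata
Snhg5, chr9:88522868-88522917, minus strand: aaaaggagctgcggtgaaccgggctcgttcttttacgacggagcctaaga
Snhg8, chr3:123508307-123508356, minus strand: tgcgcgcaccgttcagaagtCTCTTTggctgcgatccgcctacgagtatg
Snhg12, chr4:132308658-132308707, plus strand: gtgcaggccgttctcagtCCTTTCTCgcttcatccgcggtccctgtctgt
Such a tract was present at 4 of the 7 starts, in Gas5, Snhg3, Snhg8 and Snhg12. It was present at 18.3% of 32851 RefSeq starts of all genes and at 42.9% of 70 starts of Rpl and Rps genes, which encode ribosomal proteins. With the C required exactly at the annotated start, 2 of the genes, 2.51% of all starts and 18.6% of Rpl and Rps starts held one. The absence of a tract says only that these letters are not in the window around that annotated start.

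The reading frames are shown because they are what a ribosome scanning the spliced RNA would first meet. They were read from spliced GENCODE M21 transcripts on GRCm38, leaving out retained introns, with capitals for the start and stop codons and 10 bases on either side.
Gas5: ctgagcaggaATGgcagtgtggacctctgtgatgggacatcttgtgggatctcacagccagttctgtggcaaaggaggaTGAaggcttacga
Snhg5: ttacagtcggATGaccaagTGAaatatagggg
Snhg8: gcctacgagtATGTAGttgtatggtg
All 5 spliced Gas5 transcripts began with the same frame of 23 codons before the stop. In both spliced Snhg8 transcripts the first ATG was followed at once by a stop codon, a frame of 1 codon. The 3 spliced Snhg5 transcripts began with 3 different frames, and that shown had 3 codons. The frames shown are short ones. The commonest first frame had 42 codons in Snhg3 (2 of 5 spliced transcripts), 53 in Snhg6 (3 of 5) and 54 in Snhg12 (7 of 10). The first frame had 7 to 40 codons in the 4 spliced transcripts of Snhg1, 10 to 42 in the 5 of Snhg3, 3 to 36 in the 3 of Snhg5, 9 to 53 in the 5 of Snhg6 and 10 to 54 in the 10 of Snhg12. The longest frame of any of these transcripts had 81 codons and lay in Gas5. Which of the annotated transcripts the libraries held was not analysed here, since the values are per gene.

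Gas5, a growth-arrest RNA that carries box C/D snoRNAs, stood far above the other hosts in both fractions. Its 8 IN libraries lay between 41.3 and 50.04 scaled TPM and its 8 IP libraries between 39.4 and 50.5, and it made up 54.0% ± 0.70 of the summed TPM of the 7 genes in IN and 52.3% ± 4.19 in IP (SD, n = 8). Snhg8, a host of the H/ACA snoRNA Snora24, came next at 12.5 ± 1.75 in IN and 10.4 ± 1.38 in IP. In IN the order then ran Snhg6 (6.03 ± 1.53), Snhg1 (5.90 ± 0.64), Snhg3 (5.38 ± 1.19), Snhg12 (5.25 ± 0.28) and Snhg5 (3.86 ± 0.79). Only the steps from Gas5 to Snhg8 and from Snhg8 to Snhg6 were beyond the spread of libraries in IN, each with 8 of 8 libraries in that order. In IP the order was Gas5, Snhg8, Snhg6 (8.16 ± 2.03), Snhg3 (7.30 ± 6.40), Snhg12 (6.18 ± 0.99), Snhg1 (5.84 ± 0.70) and Snhg5 (2.53 ± 0.54). There the steps from Gas5 to Snhg8 and from Snhg1 to Snhg5 were beyond the spread, and the other neighbours overlapped. All 7 genes were above a mean of 1 deposited TPM in both fractions, so none entered the tests through 1 fraction alone.

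**Figure D1:**
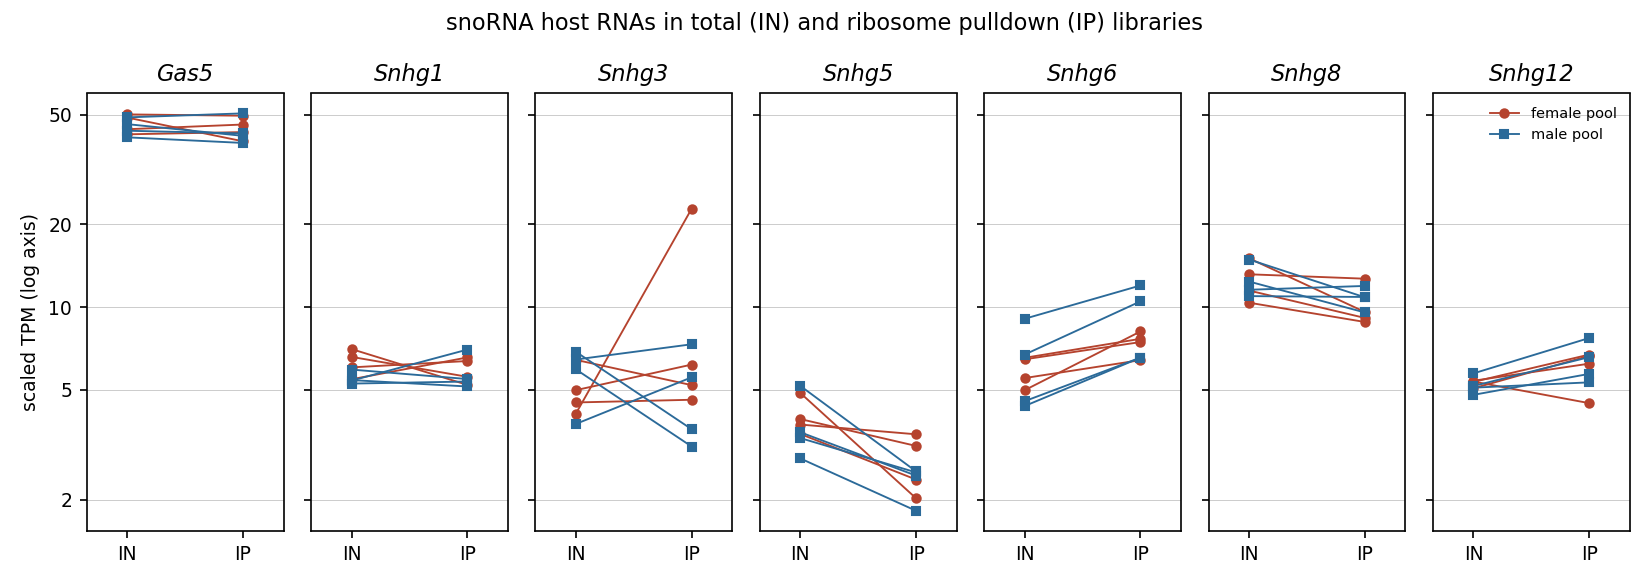
Scaled TPM (log axis) of each host gene in IN and IP; each line joins the IN and IP libraries of 1 pool, circles for female and squares for male pools. Gas5 stays between 39.4 and 50.5, the Snhg6 lines all run upward and the Snhg5 lines all run downward, and 1 female pool of Snhg3 reaches 22.8 in IP.

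Median-of-ratios scaling itself places the typical gene near no change. A value near zero therefore means a change like that of the median gene, and not equal amounts in the 2 fractions. On this scale the host RNAs were found in the ribosome pulldown with fitted changes near that of the median gene. Single pools ranged more widely, from 52.4% to 555% of IN for Snhg3 and from 41.5% to 92.2% for Snhg5. In IP against IN, 2 of the 7 genes rose (Snhg6 and Snhg12), 2 fell (Snhg5 and Snhg8) and 3 did not pass the test (Gas5, Snhg1 and Snhg3). Which genes passed depended on the scaling: under quantile normalization Snhg6 and Snhg12 again rose, Snhg5 and Snhg8 did not pass, and Gas5 passed as lower and Snhg1 as higher. Of all 16099 genes tested, 79.4% passed limma's test at an adjusted p of 0.05 or less, 40.5% higher and 38.9% lower. For 0 of the 7 genes did all IP libraries lie on 1 side of all IN libraries, which held for 48.4% of all genes. The changes of the 7 genes ran from -0.46 to 0.38 with a median of -0.01, and 7 of 7 lay within 0.5 of zero on the log2(scaled TPM + 1) scale. That count depends on the added 1, since with 0.1 added instead Snhg5 was at -0.59. Among all genes the median was 0.02, the quartiles were -0.48 and 0.38, and 57.7% lay within 0.5 of zero.

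Snhg6, whose gene lies at chr1:9941959-9944118 on the minus strand and holds Snord87, was the host with the largest rise. Its IN values in female pools 1 to 4 were 5.52, 4.99, 6.46 and 6.54, and its IP values were 6.42, 8.16, 7.46 and 7.67. In male pools 1 to 4 the IN values were 6.72, 4.37, 4.55 and 9.07 and the IP values 10.5, 6.55, 6.55 and 12.0. The male pools 1 and 4 were the highest in both fractions, so the groups overlapped although each pool was higher in IP than in its own IN. The rise was 0.38 ± 0.06 (log2 ± SE, limma adjusted p = 0.00022) and was seen in 8 of 8 pools, with IP at 116% to 163% of IN. At this rise, 75.2% of all tested genes had a lower log2 change than Snhg6.

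Snhg12, at chr4:132308678-132311024 on the plus strand and host of both kinds of snoRNA, rose by less. The IN values were tightly grouped at 5.35, 5.40, 5.07 and 5.36 in female pools 1 to 4 and 5.17, 5.10, 4.801 and 5.74 in male pools 1 to 4. The IP values were 6.72, 6.23, 6.65 and 4.48 in the female and 6.58, 5.33, 5.72 and 7.72 in the male pools. Female pool 4 was the only pool whose IP value was below its IN value. The rise was 0.19 ± 0.07 (limma adjusted p = 0.024; 7 of 8 pools), and it no longer passed the threshold without female pool 1 (adjusted p = 0.056), female pool 3 (0.061), male pool 1 (0.058) or male pool 4 (0.062).

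Snhg5, at chr9:88521050-88522929 on the minus strand and host of Snord50a and Snord50b, was the member with the largest fall. Its IN values were 4.88, 3.75, 3.46 and 3.92 in female pools 1 to 4 and 2.82, 3.51, 5.17 and 3.34 in male pools 1 to 4. Its IP values were 2.02, 3.45, 2.36 and 3.13 in the female and 1.82, 2.44, 2.53 and 2.51 in the male pools. The IP value was the lower one in 8 of 8 pools, at 41.5% to 92.2% of IN with a median of 69.0%. The change was -0.46 ± 0.09 (limma adjusted p = 0.001), but -0.04 and no longer past the threshold under quantile normalization (adjusted p = 0.7). Within each sex the 4 IP values lay below all 4 IN values, a separation in either direction that 60.2% of all genes showed in females and 61.9% in males.

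Snhg8, at chr3:123507552-123508404 on the minus strand, fell by 0.24 on the log2 scale (SE 0.07, limma adjusted p = 0.013), though it stood 0.02 above the median gene in deposited TPM and missed the threshold under quantile normalization (adjusted p = 0.068). The IN values were 13.2, 10.4, 11.5 and 15.0 in female pools 1 to 4 and 10.96, 14.9, 11.6 and 12.4 in male pools 1 to 4. The IP values were 12.7, 8.83, 9.13 and 9.60 in the female and 10.9, 10.9, 11.9 and 9.56 in the male pools. Male pool 3 was the only pool that was not lower in IP, and the 2 fractions overlapped. Female pools 2 and 4 had the IP libraries with the lowest share of protein-coding TPM (45.0% and 58.0%). Without these pools, a set chosen after the data were seen, the change was -0.18 with an adjusted p of 0.052.

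Gas5, at chr1:161034422-161038539 on the plus strand, had IN values of 50.04, 42.4, 44.2 and 48.7 in female pools 1 to 4 and 41.3, 46.1, 43.7 and 48.8 in male pools 1 to 4. The IP values were 49.5, 43.2, 46.0 and 40.0 in the female and 39.4, 41.8, 42.7 and 50.5 in the male pools. The IP level was between 82.0% and 104% of the IN level of the same pool. The difference was -0.05 (95% interval -0.15 to 0.05, limma adjusted p = 0.32), the narrowest interval of the 7. This interval holds for median-of-ratios scaling only: under quantile normalization the change of Gas5 was -0.32 and passed the test (limma adjusted p = 0.00012). The p alone does not show equal levels.

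Snhg1, at chr19:8723475-8726443 on the plus strand and host of Snord22, had values of 5.47, 6.04, 6.59 and 7.04 in female IN, 5.93, 5.27, 5.43 and 5.41 in male IN, 6.56, 6.37, 5.58 and 5.22 in female IP and 5.48, 5.37, 5.15 and 7.01 in male IP. It was higher in IP in 4 of 8 pools, with a difference of -0.01 (95% interval -0.18 to 0.15, limma adjusted p = 0.88). Under quantile normalization it passed as higher, at 0.26 (limma adjusted p = 0.0092).

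Snhg3, at chr4:132348014-132353686 on the minus strand and host of the H/ACA snoRNAs Snora73a and Snora73b, was set apart by 1 library. Its IN values were 6.43, 4.11, 4.51 and 4.99 in female pools 1 to 4 and 3.77, 6.45, 5.94 and 6.88 in male pools 1 to 4. The IP values were 5.21, 22.8, 4.61 and 6.18 in the female and 5.56, 7.33, 3.12 and 3.60 in the male pools. Female pool 2 thus had an IP value at 555% of its IN value, while the lowest pool stood at 52.4%. The difference over all pools was 0.17 (95% interval -0.46 to 0.80, limma adjusted p = 0.6), and without female pool 2 it was -0.13 (adjusted p = 0.47). The same pulldown library had the lowest protein-coding share (45.0%) and the lowest summed nociceptor markers (3023 scaled TPM) of the IP libraries. Its summed satellite glia (238), Schwann cell (992), macrophage (23.6), fibroblast (177) and endothelial (7.77) markers were the highest of the IP libraries. Its large-diameter neuron markers (221) were not. The part of these differences in the Snhg3 value was not tested.

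Snhg3 shares 5592 bases with Rcc1, a regulator of chromosome condensation encoded on the same strand, and how reads were split between the 2 genes is unknown. Rcc1 was at 3.84 ± 0.58 in IN and 4.11 ± 0.94 in IP and was at 4.43 in the pulldown of female pool 2, within the range of the other libraries. Snora73b, inside Snhg3, was at 28.0 in that library against 1.28 to 7.15 in the other IP libraries, and at 18.9 in the IN library of the same pool. Gas5 overlaps Zbtb37 on the opposite strand over 428 bases and Snhg6 overlaps Mcmdc2 over 127 bases. Without a stated strand setting, reads of these overlaps cannot be assigned to a gene.

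**Figure D2:**
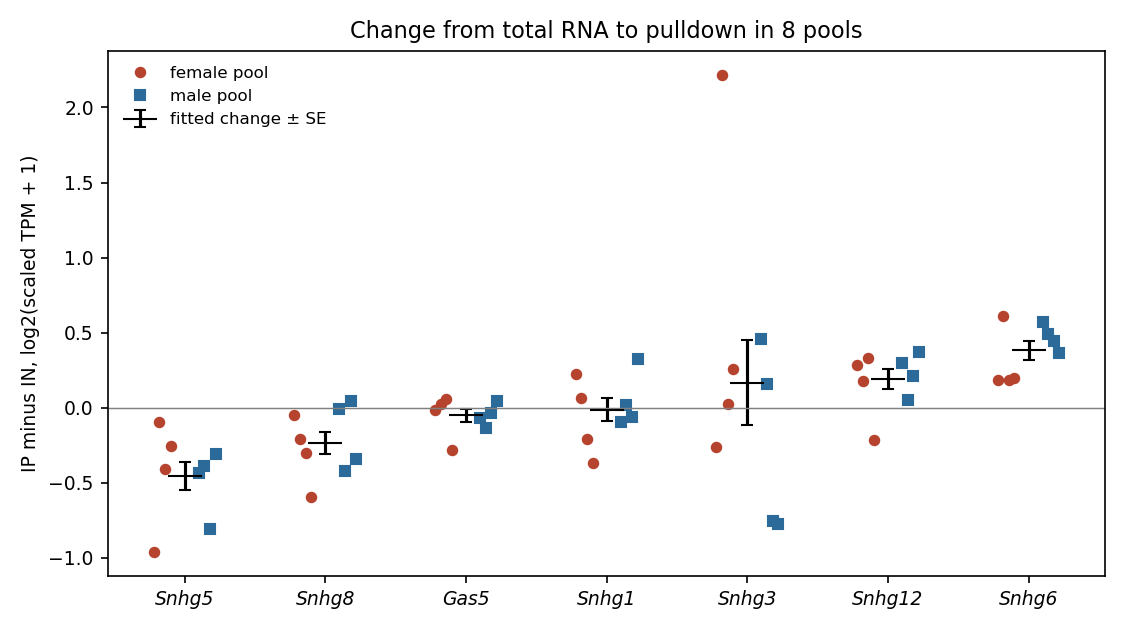
IP minus IN on the log2(scaled TPM + 1) scale for each host gene; each point is 1 pool (circles female, squares male) and the black bar is the fitted change with its standard error. The 8 pools of Snhg5 lie below zero and those of Snhg6 above it, while female pool 2 of Snhg3 stands at 2.22.

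Because a fold change between such different fractions depends on how libraries are scaled, the change was set against that of the median gene under 4 scalings. The median gene itself moved by 0.02 under median-of-ratios scaling, 0.06 when only protein-coding genes set the factors, 0.15 under quantile normalization and 1.84 in deposited TPM. Relative to it, Snhg6 was at 0.36, 0.37, 0.45 and 0.50 in that order, and Snhg12 at 0.17, 0.17, 0.32 and 0.27. Snhg5 was at -0.48, -0.48, -0.19 and -0.58, so these genes kept their side of the median gene. The settings other than quantile normalization differ only by a factor per library. Such a factor moves all genes alike, so among those settings positions relative to the median gene can differ only through the added 1.

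Gas5, Snhg1 and Snhg8 did not keep theirs. Gas5 was 0.07 below the median gene under median-of-ratios scaling, at -0.47 under quantile normalization and at 0.35 in deposited TPM. Snhg8 was at -0.26, -0.25 and -0.31 under the scaled alternatives and at 0.02 in deposited TPM. Snhg1 was at -0.03 under both median-of-ratios scalings, at 0.11 under quantile normalization and at 0.08 in deposited TPM. Gas5 and Snhg8 changed side only in deposited TPM, a move that comes from the added 1. Snhg1 changed side under quantile normalization as well. For these 3 genes a direction relative to the median gene cannot be given without naming the scaling and the value added.

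**Figure D3:**
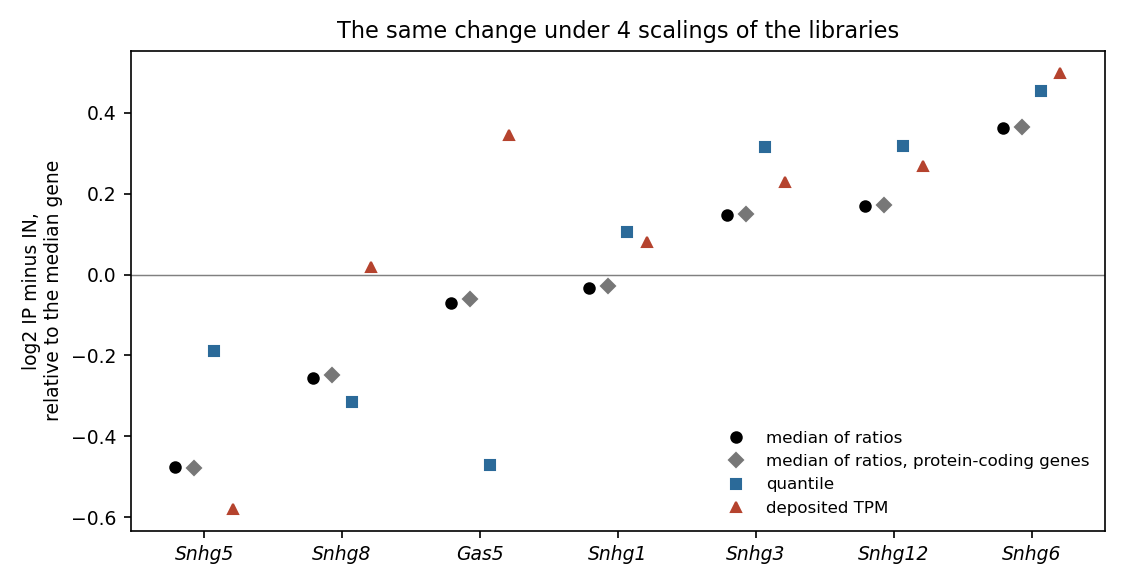
Change from IN to IP of each host gene minus that of the median tested gene (log2), under median-of-ratios scaling (circles), the same over protein-coding genes (diamonds), quantile normalization (squares) and deposited TPM (triangles). Snhg5 is below and Snhg12 and Snhg6 are above the median gene with each symbol, while Gas5 spans -0.47 to 0.35; Snhg3, also above it, had a change of -0.13 without female pool 2.

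The fraction difference was also fitted within each sex. In females 1 gene rose and 2 fell: Snhg6 at 0.29 ± 0.10 (limma adjusted p = 0.043), Snhg5 at -0.43 ± 0.15 (0.049) and Snhg8 at -0.29 ± 0.10 (0.048), where 65.9% of all genes passed, 32.6% higher and 33.4% lower. With 3 pools, 0 to 1 genes passed. Snhg6 missed limma's threshold without female pool 1 (adjusted p = 0.082), 2 (0.055), 3 (0.083) or 4 (0.085). Snhg5 missed it without pool 1 (adjusted p = 0.12), 3 (0.12) or 4 (0.088), and Snhg8 without pool 2 (0.068), 3 (0.13) or 4 (0.14). In males 2 rose and 1 fell: Snhg6 at 0.47 ± 0.07 (limma adjusted p = 0.0012), Snhg12 at 0.23 ± 0.08 (0.037) and Snhg5 at -0.49 ± 0.10 (0.0053), where 70.4% of all genes passed, 35.3% higher and 35.2% lower. The Snhg12 call was lost without male pool 1 (adjusted p = 0.12), 3 (0.091) or 4 (0.13). Snhg8 in males was at -0.18 ± 0.10 (adjusted p = 0.15). Under quantile normalization Snhg5 did not pass limma's test in females (-0.03, adjusted p = 0.87) or males (-0.05, 0.69), nor did Snhg8 in females (-0.21, 0.11). Calls were then gained by Gas5 in females (-0.32, limma adjusted p = 0.016) and males (-0.32, 0.0038), by Snhg12 in females (0.43, 0.015) and by Snhg1 in males (0.33, 0.016).

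No difference between female and male pools was called for any of the 7 genes. In IN, 0 of 7 passed limma's test against 0.0808% of all genes (13 genes), with a smallest adjusted p of 0.96 and 0 of 7 at an unadjusted p under 0.05. In IP, 0 of 7 passed against 0.0497% (8 genes), again with 0 at an unadjusted p under 0.05. The 95% intervals of female minus male were -0.13 to 0.21 in IN and -0.19 to 0.26 in IP for Gas5, and -0.12 to 0.17 and -0.39 to 0.25 for Snhg12. Snhg3 had the widest interval, -0.38 to 1.64 in IP, around a difference of 0.63 that holds female pool 2. The fraction difference itself was not found to differ by sex: 0 of 7 passed the interaction test against 0.0186% of all genes, with 0 of 7 at an unadjusted p under 0.05. For Snhg6, female minus male in that difference was -0.17 (95% interval -0.44 to 0.10), and for Snhg5 it was 0.06 (-0.38 to 0.50).

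**Figure D4:**
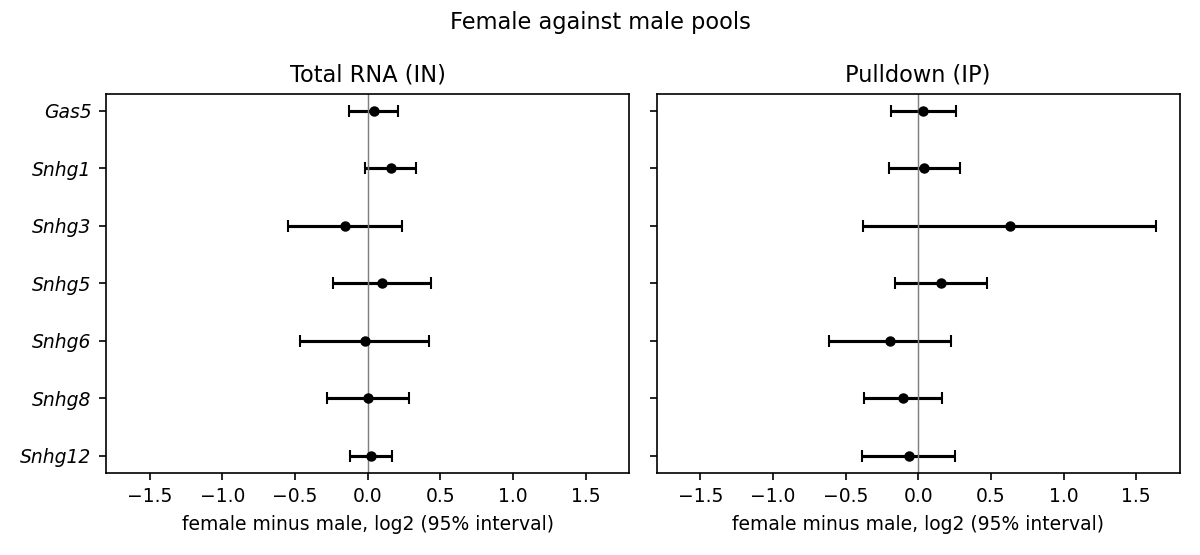
Female minus male difference (log2) of each host gene in IN (left) and IP (right), with points for the fitted value and bars for its 95% interval. Every interval includes zero, and that of Snhg3 in IP, from -0.38 to 1.64, is the widest.

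The tables also hold rows for the snoRNAs inside the hosts. By symbol, 16 such rows lie inside the 7 genes on the host's strand, 66 to 205 bases long, of which 13 had a mean under 1 deposited TPM in IN and 11 in IP. Their bases are also part of the unspliced host RNA, and the share of their reads that came from it was not tested. Taken by GENCODE M21 type there were 29 rows and 6 were tested.

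Of the tested snoRNA rows, 3 fell in IP and 3 did not pass. Gm22357, inside Gas5, went from 7.39 ± 0.77 in IN to 1.65 ± 2.03 in IP (log2 -1.93 ± 0.29, limma adjusted p = 0.00013, lower in 8 of 8 pools), while Gas5 itself changed by -0.05. Snord22, inside Snhg1, went from 26.5 ± 22.5 to 4.81 ± 2.43 (limma adjusted p = 0.0028), while Snhg1 changed by -0.01. Snord50b, inside Snhg5, went from 1.645 ± 0.47 to 0.49 ± 0.29 and changed by -0.83 ± 0.11 (limma adjusted p = 3.7e-05), beside -0.46 for its host. At these low values the added 1 shrinks the change of Snord50b more than that of its host. Snord50b and Snora24 had IN means under 1 deposited TPM (0.74 and 0.37) and were tested through IP alone. Snora73a (-1.17 ± 0.72, adjusted p = 0.16) and Snora73b (-0.40 ± 0.23, 0.13) in Snhg3 and Snora24 in Snhg8 (-0.20 ± 0.21, 0.42) did not pass limma's test. In deposited TPM, where the median gene was 1.84 higher in IP, the means in IN and IP were 3.35 and 3.18 for Gm22357, 11.8 and 10.8 for Snord22 and 0.74 and 1.03 for Snord50b. The difference between a host and its snoRNA was not tested.

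Other genes of the same pathway give the scale for these values. Of 14 other noncoding snoRNA hosts, 11 were tested, and 2 rose and 8 fell. Their median change of -0.65 was below that of all genes, as was their median under quantile normalization. Zfas1 (0.24) and Snhg10 (0.23), both noncoding hosts, rose, but within each sex 0 of the 11 passed as higher under median-of-ratios scaling. Under quantile normalization 3 of the 11 passed as higher and 5 as lower in females, and likewise 3 and 5 in males. Snhg10, at 1.51 scaled TPM in IN, entered the tests through IP alone, the fraction in which it was higher. Snhg11 (-2.68) and Snhg14 (-1.998), the latter the host of the imprinted snoRNA clusters of the Prader-Willi region, had the largest falls on the log2(scaled TPM + 1) scale. That scale understates falls of lower genes such as Snhg18 (5.06 in IN and 0.93 in IP, -1.66). Snhg11, typed as protein-coding in GENCODE M21, went from 102 ± 17.3 to 16.5 ± 8.98. All 7 long noncoding RNAs known to stay in the nucleus fell, with a median of -2.38, and each stayed below the median gene under quantile normalization too. Falls of this size were also seen for marker lists of cells other than nociceptors, with medians from -2.97 (satellite glia) to -2.06 (endothelium), while nociceptor markers rose (median 1.56). The parts of cell type and of nuclear location in the fall of these RNAs were not tested. Malat1, a nuclear speckle RNA, went from 1998 ± 359 to 186 ± 181 (log2 -3.92), Meg3 changed by -2.91, Neat1, the paraspeckle scaffold, by -2.56, Miat by -2.38, Rian by -1.99, Mirg by -1.60 and Kcnq1ot1 by -1.31.

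Coding snoRNA hosts, mostly genes of ribosomal proteins and translation factors, gave 19 that rose and 3 that fell of 29, with a median of 0.26, which came to 0.24 above the median gene but 0.11 below it under quantile normalization. Eif4a1, an RNA helicase of translation initiation, rose by 0.82 and Hspa8, a chaperone, by 0.78, while Taf1d (-0.48), a factor of RNA polymerase I transcription, and Tpt1 (-0.27) fell. Of 14 snoRNP proteins, which bind and stabilize snoRNAs, 9 rose and 1 fell, with a median of 0.23. Nhp2 (0.82) and Nop10 (0.70), core proteins of H/ACA particles, rose most, Naf1 (-0.27), an assembly factor, fell, and Nop58, a core protein of box C/D particles, was at -0.14 and did not pass. Of 15 factors of nonsense-mediated decay, 8 rose and 4 fell, with a median of 0.14. The helicase Upf1 (0.66) and Magoh (0.53), a subunit of the exon junction complex, rose, while the kinase Smg1 (-1.24) and Upf2 (-0.65) fell. Both medians stayed above that of all genes under quantile normalization too. Nop56 and Dkc1 stand on both the coding host and the snoRNP list.

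**Figure D5:**
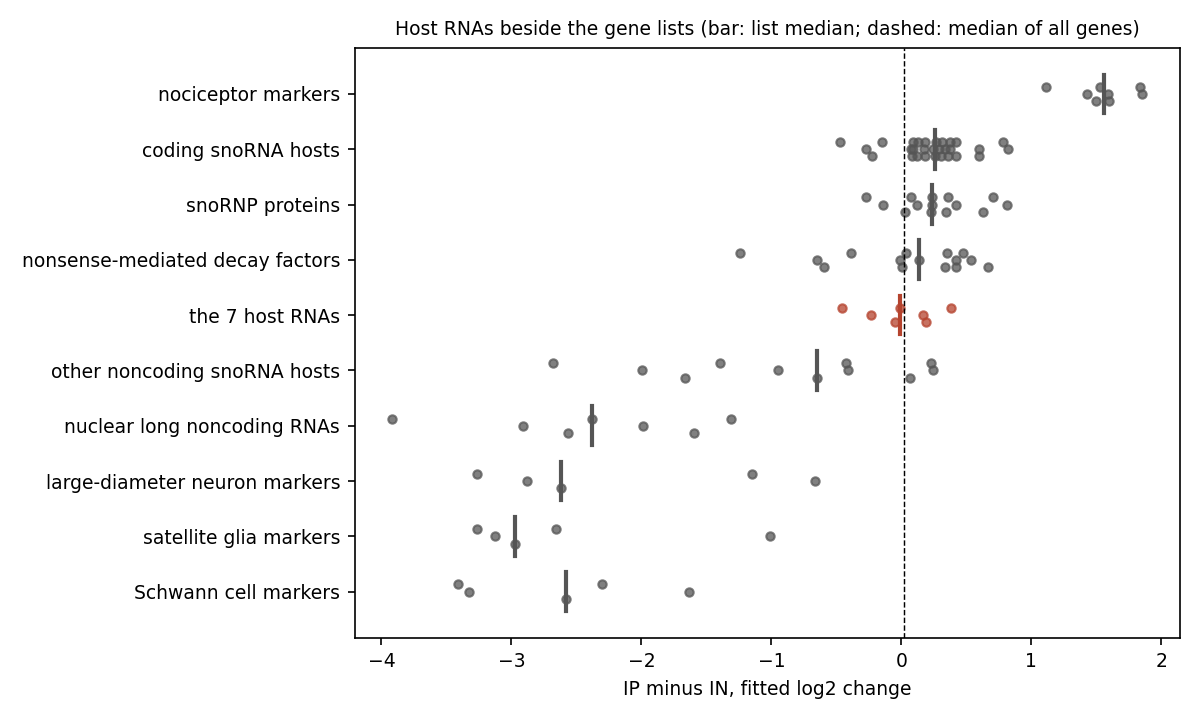
Fitted log2 change from IN to IP of each tested gene (points) by list, with the list median (bars) and the median of all genes (dashed line). The 7 host RNAs lie between -0.46 and 0.38 around the dashed line, the nuclear long noncoding RNAs and the glial and large-diameter neuron markers lie to the left, and the nociceptor markers to the right; coding hosts move to the left of the dashed line under quantile normalization.

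The summed markers give the level of other cells in the same libraries. In IP the 5 satellite glia markers summed to 117 to 238 scaled TPM, or 12.0% to 31.1% of the IN sum of the same pool, and the 5 Schwann cell markers to 385 to 992 against 2318 to 3465 in IN. Large-diameter neuron markers summed to 146 to 264 in IP against 412 to 514 in IN. Fibroblast markers summed to 65.0 to 177 in IP against 566 to 782 in IN, macrophage markers to 5.59 to 23.6 against 66.3 to 114, and endothelial markers to 1.92 to 7.77 against 24.6 to 31.2. Cd68, a macrophage marker, was listed at 0 in an IP library, and no other marker was. The 8 nociceptor markers summed to 3023 to 4473 in IP against 1224 to 1421 in IN. The host RNAs thus sat between lists that fell and rose in the same libraries, and the part of each cell type in their levels was not tested.

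Variation between pools was only partly shared among the hosts. After each group's mean was subtracted, the correlation over the 16 libraries was highest between Gas5 and Snhg12 (r = 0.66) and between Snhg1 and Snhg12 (r = 0.61), and lowest between Snhg5 and Snhg12 (r = -0.35). The 3 named genes most like each host were taken among 12690 genes by the same measure. They were Caprin2 (r = 0.85), Pqlc3 (0.81) and Meis1 (0.81) for Gas5, and Tmsb15l (0.91), Wscd2 (0.79) and Ubxn2a (0.79) for Snhg1. For Snhg12 they were Ephx4 (0.93), Mfsd14a (0.92) and Cox7a2l (0.91), and for Snhg8 Myl6b (0.88), Bmp15 (0.88) and Pdgfa (0.87). Snhg6 was most like Med4 (0.86), Naa60 (0.86) and Xrcc5 (0.85), and Snhg5 was most like Hdc (0.815), Mycbp2 (0.81) and Zfp9 (0.81). For Snhg3 they were Bcas1 (0.95), Ep300 (0.94) and Ccnl1 (0.93), which came to 0.86, 0.83 and 0.77 without the pulldown library of female pool 2. These values describe libraries that share pools and preparation, and the genes were chosen as the highest of many, so they carry no test.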

How the data were processed

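RNA was sequenced from 16 libraries (4 groups of 4 pools) made with ribosomal RNA depletion, per the labels' protocols. FastQC, STAR 2.2.1, StringTie 1.3.5 and the build GRCm38.p5 are named in the submitters' processing notes; no source used here gives the annotation release or strand setting. The unit of the deposited column was taken to be the authors' TPM: it has the same sum in every library, that of TPM, and holds the place of TPM in StringTie's table, although the file headers name it Coverage. With no counts, precision rests on the 8 pools.

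Rows of 1 gene ID were summed, 92 ERCC spike-in rows were left out, and TPM were scaled by the median of ratios (factors 0.375 to 0.532 for IN, 1.65 to 2.69 for IP). Genes with a mean of 1 or more deposited TPM in either fraction were tested. Models were fitted to log2(scaled TPM + 1) with limma 3.58.1 in R 4.3.3 (intensity trend, two-sided, Benjamini-Hochberg over all genes, threshold 0.05), with the pool as a block for IP against IN, in both sexes and each sex, and for the interaction, and without a block for female against male. The fitting script was tested on simulated data. The series design text pairs the IN and IP library of a pool; the correlation of their deviations from group means was 0.007 to 0.414. Tables were read with pandas 2.3.3 and numpy 2.4.6 under Python 3.11.15, and plots drawn with matplotlib 3.10.9.

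The 7 genes, the gene lists and the marker lists were chosen with earlier results of these data known. All 7 genes are named. Of each list of more than 7, at most 4 genes are named by rule, the 2 largest and 2 smallest changes. Named besides are Scn10a as the check of the pulldown, Snhg18 for the scale, and Nop56 and Dkc1 as genes on 2 lists. Beside each host stand the 3 genes most correlated with it. Alternatives were other scalings, a pseudocount of 0.1, no filter, the other use of the block and leaving out each pool.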

Additional observations from a re-analysis of the deposited data

Results flagged for a closer look

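In groups of 4 libraries, a value was marked when its gap to the nearest other library, divided by the group's range, was above Dixon's 95% critical value for 4 values. Of 28 groups tested (7 genes in 4 groups), 3 were marked, where chance marks about 1 in 20. Snhg3 in the pulldown of female pool 2 was at 22.78 scaled TPM, with the other female IP libraries at 4.61 to 6.18 (ratio 0.913). Snhg5 in the pulldown of male pool 1 was at 1.821, with the other male IP libraries at 2.44 to 2.53 (ratio 0.876). Snhg12 in the total RNA of female pool 3 was at 5.07, with the other female IN libraries at 5.35 to 5.40 (ratio 0.843).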

How the results depend on the processing

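In deposited TPM without scaling, where the median gene is shifted by 1.84, all 7 genes passed as higher in IP in both sexes together, in females and in males (7 each). So did most genes: 14623 of 16099 in both sexes together, 14296 of 16093 in females and 14577 of 16094 in males. The log2 changes then turned to 2.18 for Gas5, 1.92 for Snhg1, 1.26 for Snhg5 and 1.86 for Snhg8 in both sexes, to 2.06, 1.77, 1.21 and 1.68 in females, and in males to 2.31 for Gas5, 1.77 for Snhg3, 1.304 for Snhg5 and 2.03 for Snhg8. Quantile normalization turned Snhg1 to 0.26, a call that it gained (limma adjusted p = 0.0092). In females, 1 of the 7 genes passed with factors from protein-coding genes, where 10773 of all 16093 genes did. Without the filter on low values 0 of the 7 passed in females, against 15615 of all 34082 genes. Without the filter, 21019 genes passed in both sexes (12783 with it) and 17144 in males (11335). Of all genes, the interaction of sex and fraction had 3 calls, against 11 in deposited TPM, 1 after quantile normalization and 0 without the filter.

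For IP against IN the fit without the pool block called 12472 genes and 4 snoRNA hosts. In males the fit without the block called 10851 genes (11335 with it) and 1 host (3 with it). Female and male pools are different mice and were fitted without a block. The correlations of same-number female and male pools ran from -0.299 to 0.1006. These cannot exclude a shared preparation, since the IN and IP libraries of male pool 1 also correlated at only 0.007. With the replicate block 8 genes passed in IN (13 without) and 5 in IP (8 without), and 0 hosts.

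Leaving out 1 pool at a time, 3 to 4 hosts passed in both sexes, 0 to 1 in females and 2 to 3 in males. Over all genes the calls ran from 12432 to 12810 in both sexes, 8575 to 10856 in females, 9983 to 10624 in males, 10 to 13 for sex in IN, 5 to 12 for sex in IP and 0 to 6 for the interaction, where the cause was not tested. The snoRNA rows inside hosts were 29 by gene type against 16 by symbol, and tracts exactly at the start were in 2 genes against 4. Depth is unknown, so no limit from counting can be given for the hosts near 5 scaled TPM.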
